A study of Mus musculus with 2 samples.

Results

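The genes described here fold and check proteins in the endoplasmic reticulum (ER). A fixed set of 35 genes was located by mouse symbol among the 55487 gene IDs of the count table. It holds 15 chaperones and folding helpers, 9 disulphide enzymes, 4 stress sensors and 7 genes of ER-associated degradation. Xbp1, a transcription factor that acts downstream of a sensor, is counted with the sensors. RNA was sequenced from 2 cultures of C57BL/6 mouse bone marrow cells, 1 library for each. Lineage-negative cells from leg and pelvic bones, isolated by magnetic sorting and cultured overnight, were transduced with a pMYs-IG retroviral vector that stably overexpressed triple-HA-tagged EVI1-WT in one culture and EVI1+18 in the other. EVI1 is a zinc finger transcription factor of the Mecom locus that is overexpressed in a class of leukaemias, and the series title ties the work to its aberrant splicing. In both cultures, cells sorted for green fluorescence 3 days after infection were plated at 10000 per culture in MethoCult M3434, a semi-solid colony medium, and grown for about 3 weeks. The labels give neither the age or sex of the animals nor their number per culture. No culture free of the EVI1 vectors was analysed here, so the libraries are compared only with each other. Since each vector has 1 library, the differences are between these libraries, with no spread between replicates to set them against and no test. The 95% intervals given with each ratio cover counting error only.

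Proteins bound for membranes, granules or secretion enter the ER unfolded. Chaperones such as BiP and calreticulin hold them there, protein disulphide isomerases join and reshuffle their cysteines, and ERO1 oxidases pass the electrons on. Proteins that fail are pulled back to the cytosol and destroyed, which is ER-associated degradation. When unfolded protein builds up, the sensors IRE1, ATF6 and PERK start the unfolded protein response, in which ATF6 and the spliced form of XBP1 induce chaperone genes while PERK slows translation and favours ATF4. Myeloid cells that fill granules with proteases, peroxidases and carboxypeptidases make heavy use of this machinery. ER stress also takes part in the choice between survival and death of blood stem cells.

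The EVI1-WT library held 20480447 counts and the EVI1+18 library 20981903. Mecom had 3612 and 4481 counts, or 180 and 209 scaled CPM (counts per 1000000, with the library size scaled by the TMM method). Counts per gene do not show which form of EVI1 was present. The haematopoietic markers Ptprc, Spi1, Laptm5 and Coro1a stood between 204 and 1548 scaled CPM with EVI1-WT and between 170 and 1313 with EVI1+18, each lower in EVI1+18. The progenitor markers Kit (63 and 254 counts) and Cd34 (90 and 132) were scarce and higher in EVI1+18, and 6 of 6 stromal and endothelial markers were at most 9 counts in either library. Marker RNA of several blood lineages differed between the libraries. Summed over a marker list, mast cell and basophil genes stood at 4606 scaled CPM under EVI1-WT against 430 under EVI1+18, neutrophil genes at 2818 and 955 and eosinophil genes at 848 and 170. At 2-fold, by the rule given below, 6 of 8, 5 of 7 and 3 of 4 tested genes of these lists were called lower, against 5.10% of all tested genes. The basophil protease Prss34 (32 and 159 counts) and the eosinophil receptor Siglecf (114 and 517) were called higher. The 4 neutrophil promyelocyte genes, at 1365 and 1118 summed, went both ways. Ctsg (626 and 280 scaled CPM) was called lower, and Elane (72.7 and 51.7) was 1.40-fold lower. Prtn3 (127 and 201) was 1.58-fold higher and Mpo (539 and 585) 1.09-fold higher. Red-cell genes stood at 1410 and 12791, megakaryocyte genes at 464 and 1258 and macrophage genes at 570 and 1532, with 9 of 10, 4 of 5 and 4 of 6 tested genes called higher, against 5.05%. The macrophage sum turned on Gpnmb, at 242 and 1214 scaled CPM, while Adgre1, the F4/80 antigen, was called lower, at 246 and 94.4. Of their markers, Tubb1 and Gp1bb of megakaryocytes had 0 counts in EVI1-WT, and C1qa of macrophages had 0 in both libraries. In a bulk library, fewer cells of a type and less RNA per cell cannot be told apart. The part of these markers in the results below was not tested.

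As a set, the ER folding genes were lower in the EVI1+18 library, and the disulphide enzymes had the lowest median of the roles. Together the 35 genes held 300736 counts in EVI1-WT, or 1.468% of the library (exact binomial interval 1.463 to 1.474), and 184932 in EVI1+18, or 0.881% (0.877 to 0.885). A gene was counted as tested when it reached 1 scaled CPM in either library, and 34 of the 35 did, among 13183 genes in all. The median log2 ratio of EVI1+18 over EVI1-WT was -0.69 over the 34, beside a median of 0.01 over all tested genes, whose quartiles were -0.32 and 0.30. A gene was called lower or higher at a given fold when its whole counting interval lay past that fold. At 1.5-fold, 17 of the 34 were called lower, against 9.79% of all tested genes, and 0 were called higher, against 8.29%. At 2-fold, 5 were called lower, against 5.10% of all tested genes, and 0 higher, against 5.05%. Abundant genes have narrow intervals, so the same shares were taken over the 7810 genes of at least 20 scaled CPM in a library, a level chosen after the values were seen that keeps all 34. There, 8.86% were called lower and 5.85% higher at 1.5-fold, and 3.91% lower and 3.01% higher at 2-fold. By the loosest rule, an interval that leaves out equality, 28 were lower, 5 were higher and 1 was neither, while 32.8% of all tested genes were lower and 33.4% higher.

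**Figure D1:**
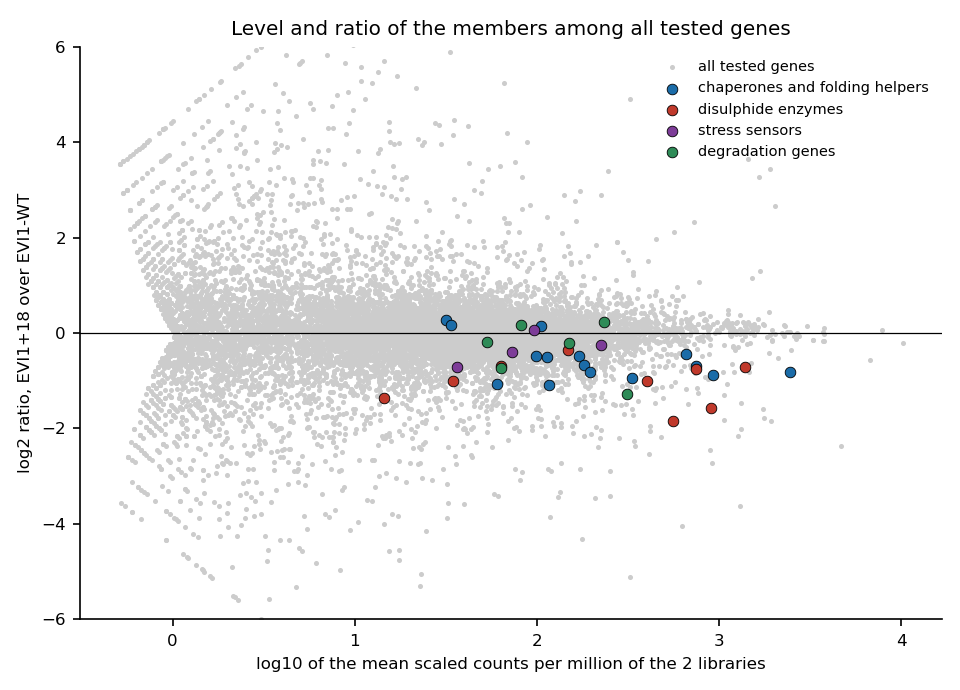
Each grey point is a tested gene, placed by its mean level in the 2 libraries (log10 of scaled CPM) and by its log2 ratio of EVI1+18 over EVI1-WT, and the coloured points are the folding and quality control genes by role. The vertical axis stops at 6 in both directions, which leaves out 27 grey points. The coloured points lie mostly on the right, among abundant genes, and below 0, with a median of -0.69.

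The medians differed between the roles. The median log2 ratio was -1.0 for the 9 disulphide enzymes, -0.68 for the 15 chaperones and folding helpers, -0.32 for the 4 sensors and -0.20 for the 6 tested degradation genes. The differences between roles have no test, since each rests on the same pair of libraries. At 1.5-fold, 7 of 9 disulphide enzymes, 8 of 15 chaperones and folding helpers, 0 of 4 sensors and 2 of 6 degradation genes were called lower. Of all tested genes, 9.79% were so called, and for as few as 4 sensors 0 calls is near that share. The disulphide enzymes made up 38.2% of the counts of the 35 genes in EVI1-WT and 32.2% in EVI1+18. That fall was mostly in Ero1l, from 9.01% to 5.23%, and Pdia4, from 5.87% to 2.83%. The shares of Pdia6, Pdia5 and Ero1lb fell slightly, while those of P4hb (11.5% to 12.2%), Pdia3, Txndc5 and Txndc11 rose. The share of chaperones and folding helpers went from 51.8% to 54.3%, that of sensors from 3.10% to 4.58% and that of degradation genes from 6.89% to 8.86%.

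**Figure D2:**
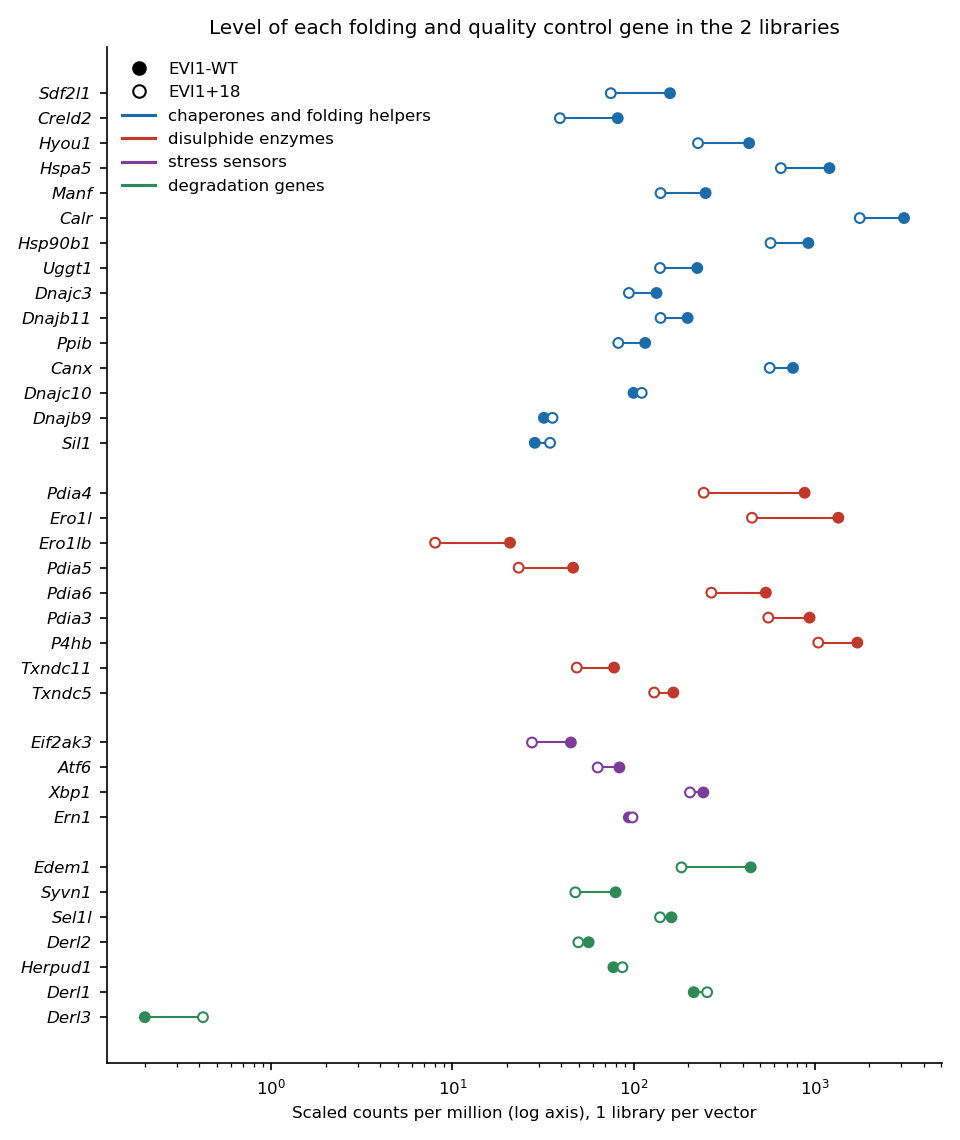
Scaled CPM of each gene on a log axis, with a filled point for the EVI1-WT library, an open point for the EVI1+18 library and a line between them, coloured by role. The open point lies to the left of the filled one for all 9 disulphide enzymes and for 12 of 15 chaperones and folding helpers. Derl3, at 0.200 and 0.419, was below the level needed to be tested.

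Promoters of many of these genes carry the ER stress response element (ERSE), the textbook binding site through which ATF6 and XBP1 act together with NF-Y. RefSeq promoter windows on GRCm38.p6, from 250 bases before to 50 bases after the annotated start, were found for 30 of the 35 genes, with Ero1l and Ero1lb matched under their newer names Ero1a and Ero1b. Hyou1, Sil1, Manf, Atf6 and Derl1 had no entry. The pattern, CCAAT and CCACG with any 9 bases between them, searched on both strands, occurred in the windows of 10 of the 30 genes (33.3%) and of 37 of all 27025 genes with a window (0.137%). The genes were chosen as known members of this response, so the match is a description of them and not a finding of these libraries. Their sites are shown because genes of 3 roles carry them and their levels can be read against the pattern. They are written 5′ to 3′ on the strand that carries CCAAT, with the fixed letters in capitals:
Hspa5: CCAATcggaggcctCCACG
Hsp90b1, distal: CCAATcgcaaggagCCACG
Hsp90b1, proximal: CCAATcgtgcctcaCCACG
Calr: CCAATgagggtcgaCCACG
Canx: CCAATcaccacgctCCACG
Creld2: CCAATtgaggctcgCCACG
Dnajc3: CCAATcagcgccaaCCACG
Pdia6: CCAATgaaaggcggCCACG
Ero1lb: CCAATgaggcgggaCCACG
Syvn1: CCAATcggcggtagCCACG
Derl3: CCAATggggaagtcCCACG

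The 11 sites ended between 26 and 194 bases before the RefSeq start. The Hspa5 site, at chr2:34772025-34772043, lies inside the outermost GENCODE transcript of the gene, and the other 10 lie before any GENCODE start. Of the 10 genes with a site, 9 were tested. All 9 had a log2 ratio below 0, from -1.36 for Ero1lb to -0.43 for Canx, with a median of -0.81. At 1.5-fold, 7 were called lower, against 9.79% of all tested genes. The 20 tested genes with a window and no such site had a median of -0.58 and ran from -1.85 for Pdia4 to 0.16, with 8 called lower at 1.5-fold. Pdia4, Ero1l and Edem1, the 3 genes with the lowest ratios besides Ero1lb, were thus in the second group. The groups also differed in role. Of the tested sensor and degradation genes with a window, only Syvn1 was in the first group. Xbp1, Ern1, Eif2ak3, Herpud1, Sel1l, Edem1 and Derl2 were in the second. The part of role in these medians was not tested. Absence of these letters from the window says nothing about the factors that act on a gene. Few genes outside the set could be set beside them. Of the 27 other genes with a site, 7 were tested, their median log2 ratio was -0.03, and 0 were called at 1.5-fold in either direction. For as few as 7 genes, 0 calls is near the shares of all tested genes, 9.79% lower and 8.29% higher. Low counts limit such calls. Zfp57 (218 and 127 counts, log2 ratio -0.87) and Gm6566 (27 and 18, -0.63) lay past 1.5-fold by the ratio alone. The highest of the 7 was Pan2, at 0.32.

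Of 2 related patterns, ERSE-II (ATTGG and CCACG with any 1 base between them, both strands) occurred in 0.0444% of genes and in Dnajb11 and Herpud1, and TGACGTGG (the XBP1 element UPRE, both strands) in 0.714% of genes and in Txndc5 and Txndc11. No match of one pattern in these genes overlapped a match of another. The 4 upstream stretches below show the site in its context for a lectin chaperone, the ER Hsp90, an isomerase and an oxidase. They are on the strand of the gene and end at the base before the outermost annotated transcript, with the fixed letters of each site in capitals, so that a site on the other strand reads CGTGG first and ATTGG last. They come from chr8:84846935-84847181 (minus strand), chr10:86705510-86705694 (minus), chr12:17266339-17266544 (plus) and chr13:12565633-12565873 (plus):
Calr: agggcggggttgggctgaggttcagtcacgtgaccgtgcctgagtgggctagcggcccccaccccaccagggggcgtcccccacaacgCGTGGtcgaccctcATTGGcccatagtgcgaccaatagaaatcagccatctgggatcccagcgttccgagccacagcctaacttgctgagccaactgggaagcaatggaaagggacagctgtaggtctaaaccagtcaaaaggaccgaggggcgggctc
Hsp90b1: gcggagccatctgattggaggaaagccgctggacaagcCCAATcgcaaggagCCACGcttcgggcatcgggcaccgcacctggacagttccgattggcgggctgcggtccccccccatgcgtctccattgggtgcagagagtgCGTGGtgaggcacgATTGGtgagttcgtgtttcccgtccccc
Pdia6: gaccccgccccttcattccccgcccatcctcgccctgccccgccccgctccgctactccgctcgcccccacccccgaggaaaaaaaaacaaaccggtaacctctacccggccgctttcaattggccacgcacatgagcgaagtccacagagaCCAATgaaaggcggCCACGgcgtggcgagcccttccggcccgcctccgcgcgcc
Ero1lb: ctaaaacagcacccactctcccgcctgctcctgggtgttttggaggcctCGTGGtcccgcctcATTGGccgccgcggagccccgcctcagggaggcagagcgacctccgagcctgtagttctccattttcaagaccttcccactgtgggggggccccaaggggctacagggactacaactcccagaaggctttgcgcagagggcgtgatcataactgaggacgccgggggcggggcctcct

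**Figure D3:**
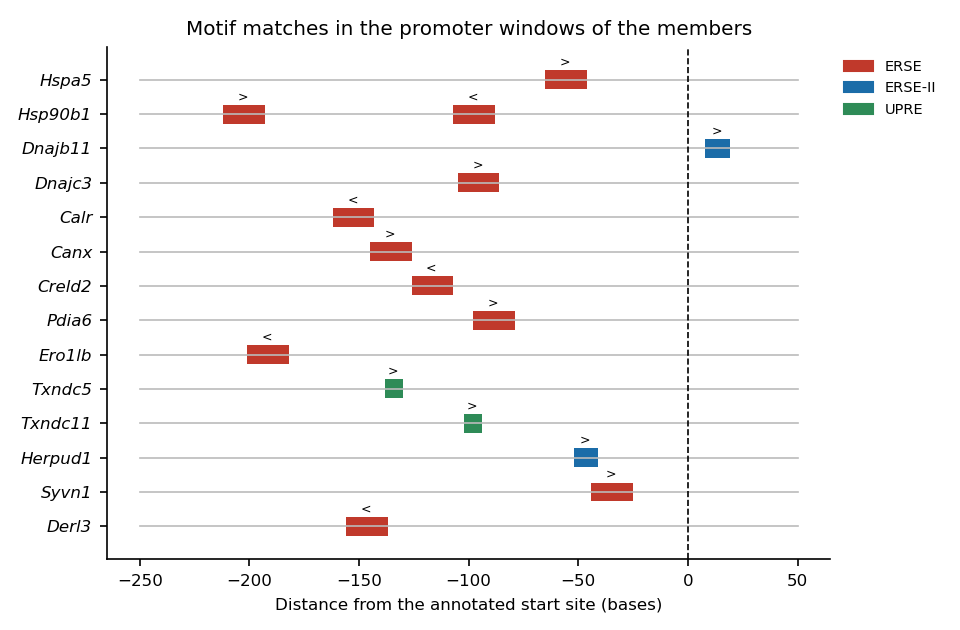
Promoter windows of the 14 genes with a match, drawn from 250 bases before to 50 bases after the RefSeq start (dashed line), with boxes for matches to ERSE, ERSE-II and UPRE and an arrowhead for the strand relative to the gene. All 11 ERSE boxes lie before the start, and Hsp90b1 carries 2 of them, on opposite strands.

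Among the chaperones proper, the library with EVI1+18 held less RNA of BiP and its closest partners. Hspa5 (BiP, the ER Hsp70; chromosome 2, 34771970 to 34777547) was read 24195 times in EVI1-WT and 13971 times in EVI1+18, which is 1208 and 651 scaled CPM. Its level was 1.86-fold lower in EVI1+18 (1.82 to 1.89). Hsp90b1, which encodes GRP94, the Hsp90 of the ER and the folding factor of Toll-like receptors and integrins, stood at 924 and 571 scaled CPM, 1.62-fold lower (1.58 to 1.66). The Hsp70-related nucleotide exchange factor Hyou1 was 1.92-fold lower (1.85 to 1.99), at 435 and 227. The other exchange factor of BiP, Sil1, moved the other way. It had 571 and 743 counts and was 1.21-fold higher (1.09 to 1.36).

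The cochaperones of BiP, most of them J-domain proteins that bring substrates to it and trigger its ATPase, were divided. Sdf2l1, which keeps BiP and ERdj3 working together, had the lowest ratio among all 15 chaperones and folding helpers, with 3187 and 1607 counts. It was 2.12-fold lower (2.0 to 2.26), so near the limit that its 2-fold call was lost under each of the other scalings. Dnajb11 (ERdj3) was 1.41-fold lower (1.34 to 1.48), at 199 and 141 scaled CPM, and Dnajc3 (p58IPK, which also restrains PERK) 1.42-fold lower (1.34 to 1.5), at 134 and 94.3. Neither reached the 1.5-fold rule. Dnajb9 (ERdj4, a repressor of IRE1) had 641 and 767 counts and was 1.12-fold higher, with an interval from 1.0 to 1.24. Dnajc10 (ERdj5, a reductase that opens disulphides ahead of degradation) had 2005 and 2384 counts and was 1.11-fold higher (1.05 to 1.18).

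The lectin chaperones hold glycoproteins that carry a single glucose, and UGGT1 puts that glucose back on proteins that are still unfolded. Calr (calreticulin; chromosome 8, 84841850 to 84846934), also the main calcium buffer of the ER, was the most abundant of the 35 genes per length in both libraries, at 2771 and 1597 TPM (transcripts per 1000000, from counts divided by exon length). It had 62454 and 38089 counts, or 20.8% and 20.6% of the counts of the whole set, and was 1.76-fold lower (1.73 to 1.78). Its membrane-bound partner Canx (calnexin) was less far apart, 1.35-fold lower (1.31 to 1.38), at 760 and 565 scaled CPM. Uggt1 was 1.61-fold lower (1.53 to 1.68), at 225 and 140.

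Of the remaining folding helpers, the 2 small secreted proteins Creld2 and Manf were lower, as was Ppib. Creld2 had 1638 and 842 counts and was 2.08-fold lower (1.92 to 2.27), a ratio past 2-fold with an interval that crosses it. Manf, a neurotrophic factor that binds BiP, stood at 250 and 141 scaled CPM and was 1.77-fold lower (1.69 to 1.85). Ppib, the ER cyclophilin that turns prolines, was 1.41-fold lower (1.32 to 1.5), at 116 and 82.4. On the opposite strand, Snx22 covers 25% of the exonic bases of Ppib and had 13 and 4 counts. How reads in the shared bases were counted is not known, so the Ppib counts are the less certain.

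**Figure D4:**
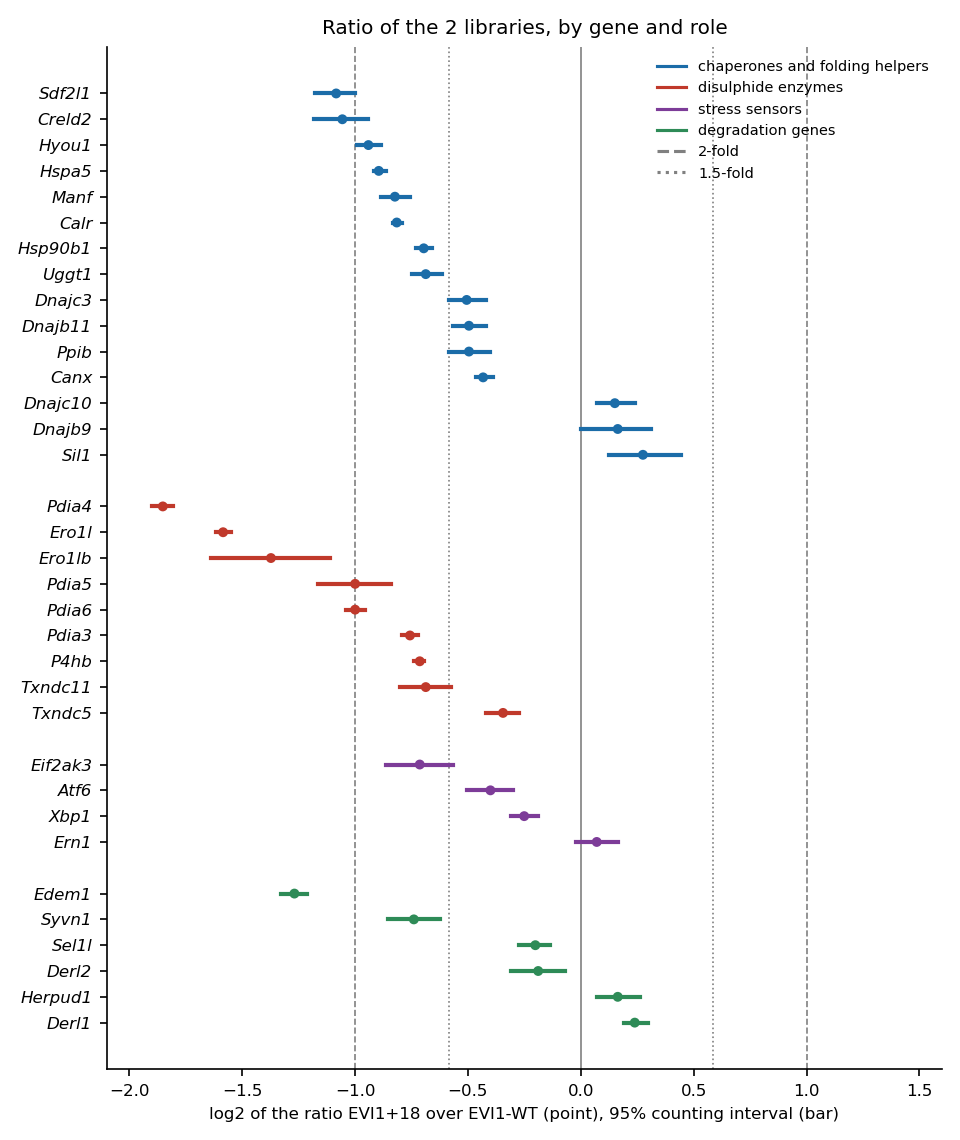
Log2 of the ratio of scaled CPM, EVI1+18 over EVI1-WT, for the 34 tested genes (points) with the 95% counting interval (bars), ordered within roles. Dotted lines mark 1.5-fold and dashed lines 2-fold. Pdia4, Ero1l, Ero1lb and Edem1 lie wholly beyond the left dashed line and Sdf2l1 just beyond it, and no bar reaches beyond the right dotted line.

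All 9 disulphide enzymes were lower in EVI1+18, and 3 of them were called 2-fold lower, against 5.10% of all tested genes. Pdia4 (ERp72, an isomerase with extra thioredoxin domains; chromosome 6, 47796141 to 47813430) had 17652 counts with EVI1-WT and 5237 with EVI1+18, or 881 and 244 scaled CPM. At 3.61-fold lower (3.50 to 3.73) it had the lowest ratio of all 35 genes, and by TPM it went from rank 3 of the set, at 940, to rank 7, at 264. Ero1l (ERO1-alpha, the oxidase that reoxidises protein disulphide isomerase, also known as a hypoxia-induced gene; chromosome 14, 45283087 to 45318771) had 27089 and 9674 counts, or 1353 and 451 scaled CPM, and was 3.00-fold lower (2.93 to 3.07). The second oxidase, Ero1lb (ERO1-beta), was far less abundant, with 416 and 172 counts, and was 2.59-fold lower (2.16 to 3.11). The counting intervals of the pair's balance overlapped. Ero1l took 98.49% of the pair's counts in EVI1-WT (98.34 to 98.63) and 98.25% in EVI1+18 (97.97 to 98.50). Of the 50-base words in the Ero1lb transcripts, 8.85% also occur in the predicted gene Gm18562, so its counts are the less certain. Ero1lb is not alone in this. Words shared with any other gene came to 30.77% for Ppib, 9.75% for Hsp90b1 and 8.85% for Txndc5. An opposite-strand gene covers 10.3% of the exonic bases of Hsp90b1 and another 8.05% of those of Eif2ak3.

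The other isomerases ranged from about 2-fold lower to less than 1.5-fold lower. Pdia6 (P5), a partner of BiP, had 10776 and 5777 counts and was 2.0-fold lower (1.94 to 2.06). Pdia5 had 929 and 497 counts and was also 2.0-fold lower, with a wider interval (1.79 to 2.24). Both intervals include 2. Pdia3 (ERp57, which works with the lectin chaperones on glycoproteins and in MHC class I loading) was 1.69-fold lower (1.65 to 1.73), at 938 and 555 scaled CPM. P4hb, the founding protein disulphide isomerase and a subunit of prolyl 4-hydroxylase, was 1.64-fold lower (1.62 to 1.67), at 1722 and 1048, and kept rank 2 by TPM in both libraries. Txndc11, which serves the maturation of NADPH oxidases of the DUOX type, had 1565 and 1042 counts, 1.61-fold lower (1.49 to 1.74), just short of the 1.5-fold rule. Txndc5 was nearest to equality in this role, 1.27-fold lower (1.21 to 1.34), at 166 and 130.

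The RNA of the stress sensors differed less. None of the 4 was called at 1.5-fold by the interval rule, though the ratio of Eif2ak3 alone lies past it. Eif2ak3 (PERK) had 904 and 590 counts and was 1.64-fold lower (1.48 to 1.82), the lowest of the role. Atf6 was 1.32-fold lower (1.23 to 1.42), at 83.6 and 63.4 scaled CPM, and Xbp1 1.19-fold lower (1.14 to 1.24), at 243 and 205. Ern1 (IRE1-alpha, the nuclease that splices Xbp1) had 1886 and 2118 counts, a ratio of 1.05 with an interval that includes equality (0.985 to 1.12). These proteins are switched on by cleavage, phosphorylation and splicing. Counts per gene read none of these steps, so the activity of the sensors was not measured.

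The degradation genes held both directions. Edem1 (a mannosidase-like protein that picks glycoproteins for disposal; chromosome 6, 108828641 to 108859356) had 8884 counts against 3943 with EVI1+18, or 444 and 184 scaled CPM. It was 2.41-fold lower (2.32 to 2.51) and went from rank 13 to rank 19 of the set by TPM. The ubiquitin ligase Syvn1 (HRD1) had 1594 and 1024 counts and was 1.67-fold lower (1.54 to 1.81). Its partner Sel1l, which stabilises HRD1 and passes substrates to it, was only 1.15-fold lower (1.10 to 1.21), at 162 and 140 scaled CPM. Derl1 (derlin-1, a part of the exit channel) was 1.18-fold higher (1.14 to 1.23), with 4311 and 5471 counts, and Derl2 1.14-fold lower (1.05 to 1.24), with 1132 and 1064. Herpud1, a scaffold of the HRD1 complex, had 1550 and 1862 counts and was 1.12-fold higher (1.05 to 1.20). Derl3, the derlin typical of plasma cells, had 4 and 9 counts, and 3 is the most that a count of 0 allows. The ratio of 2.10 had an interval from 0.586 to 9.33, so no difference was detectable at this depth. The B and plasma cell markers Mzb1 and Ms4a1 had 0 counts in both libraries and Jchain had 3 and 1, while Ighm had 61 and 558. The plasma cell marker Sdc1 had 4 and 22 counts (5.13-fold higher, 1.74 to 20.5), and the B cell genes Cd79a and Cd79b had 3 and 3 and 65 and 45.

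Of 133 other genes of the secretory pathway in 9 lists, 126 were tested. Their called shares at 1.5-fold were near those of all genes, but smaller differences leaned lower. At 1.5-fold, 13 were called lower, against 9.79% of all tested genes, and 7 higher, against 8.29%. By the loosest rule, 79 were lower and 24 higher, against 32.8% and 33.4% of all tested genes. The 79 held 18 of 20 genes of COPII export and KDEL retrieval and 14 of 18 of the translocon and signal peptidase, but 0 of 11 of the PERK-ATF4 list. The pooled median log2 ratio of -0.22 joins unlike lists, since the PERK-ATF4 list had a median of 0.58 and held 5 of the 7 higher calls, while the other 8 lists had medians from -0.35 to -0.07. The entry machinery leaned down by small amounts. Of 18 translocon and signal peptidase genes, 0 were called at 1.5-fold, with a median of -0.33, and the farthest apart was the translocon-associated Ssr2, 1.47-fold lower (1.42 to 1.53). The peptidase subunit Sec11c was 1.10-fold higher (1.06 to 1.15). Of 14 tested genes of oligosaccharyltransferase and the glucosidases, which add and trim the glycans that the lectin chaperones read, 0 were called at 1.5-fold, with a median of -0.35. Of 20 genes of COPII export and KDEL retrieval, 4 were called 1.5-fold lower and 0 higher, with a median of -0.32. At 2-fold this list held 1 lower call, against 5.10% of all tested genes. It was Kdelr3, a receptor that returns escaped chaperones, with 55 and 10 counts and a 5.89-fold lower level (2.97 to 13.0).

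The further disulphide and redox enzymes were mixed, with a median of -0.29. Of 15 tested, 2 were called 2-fold lower, against 5.10% of all tested genes, and 0 higher, against 5.05%. Txndc16 had 481 and 168 counts, 3.07-fold lower (2.57 to 3.68), and the peroxidase Gpx8 had 23 and 4, 6.16-fold lower (2.10 to 24.5). The membrane-bound thioredoxin protein Tmx1 went the other way, 1.87-fold higher (1.79 to 1.95), at 158 and 294 scaled CPM. Among 5 tested prolyl isomerases, Fkbp11 was 2.64-fold lower (2.2 to 3.18) and Ppic, with 14 and 127 counts, 8.47-fold higher (4.86 to 15.9).

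The 20 further degradation genes had a median of -0.12. Of them, 3 were called 1.5-fold lower, against 9.79% of all tested genes, and 0 higher, against 8.29%. All 3 are for glycoprotein disposal. Edem3 was 1.92-fold lower (1.76 to 2.08), the lectin Os9 1.80-fold (1.74 to 1.86) and Edem2 1.64-fold (1.54 to 1.75). This grouping was made after the values were seen, and 2 other genes of the glycan-reading step in the list were not called, the lectin Erlec1 (1.18-fold lower, 1.08 to 1.30) and the mannosidase Man1b1 (1.11-fold lower, 1.03 to 1.20). In the list of ER calcium handling, with a median of -0.18, 1 of 12 was called 2-fold lower, against 5.10% of all tested genes, and 0 higher. It was the calcium release channel Itpr3, at 145 and 61.7 scaled CPM (2.34-fold, 2.2 to 2.50). Among 11 tested stress transducers, Creb3l2, an ER-bound transcription factor cleaved in the Golgi, was 2.91-fold lower (2.65 to 3.21), at 79.7 and 27.4, and the median was -0.07.

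The genes of the PERK-ATF4 list stood on the other side of equality from most of the folding genes. All 11 had an interval above equality, and the median log2 ratio was 0.58. At 1.5-fold, 5 were called higher, against 8.29% of all tested genes, and 0 lower, against 9.79%. Atf4 itself was 1.62-fold higher (1.57 to 1.66), at 366 and 592 scaled CPM, and Ddit3 (CHOP) 1.80-fold higher (1.6 to 2.03), with 413 and 797 counts. Past 2-fold lay Trib3 (4.99-fold, 4.52 to 5.52), Atf3 (3.55-fold, 3.05 to 4.14) and Nupr1 (2.52-fold, 2.11 to 3.03). The nearest to equality was Eif2s1, the translation factor that PERK phosphorylates, 1.15-fold higher (1.10 to 1.20). ATF4 also answers to amino acid shortage and other kinases, and which input was at work was not measured.

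**Figure D5:**
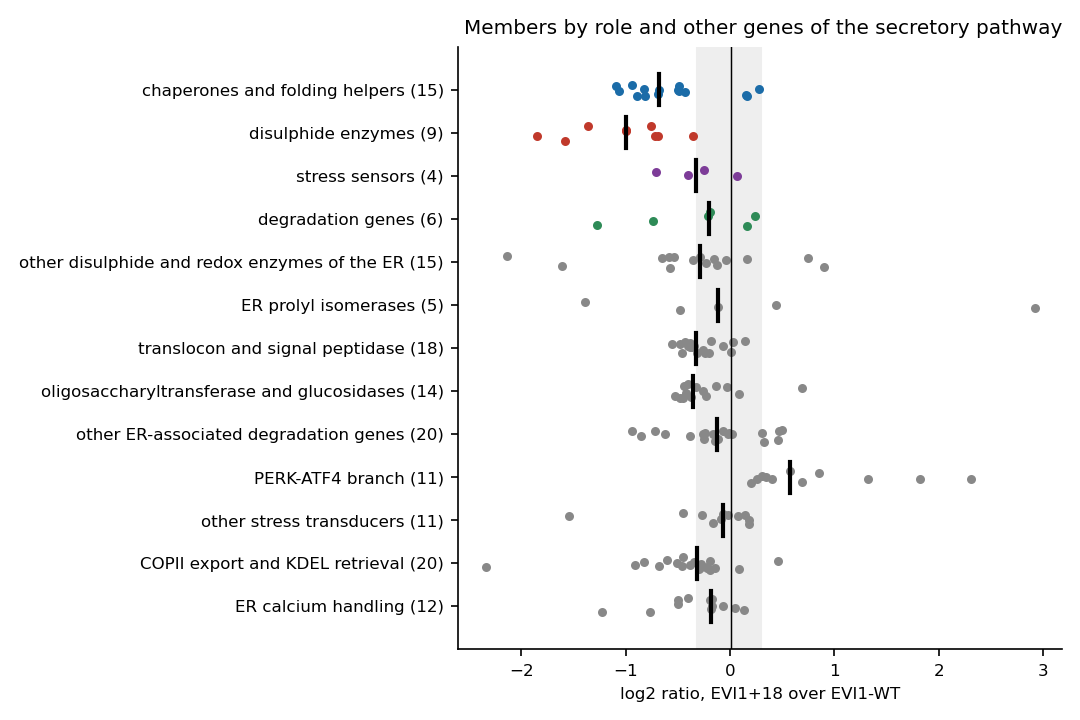
Log2 ratio of EVI1+18 over EVI1-WT for the tested genes of each role (coloured) and of each other list of the secretory pathway (grey), with the number of tested genes in brackets, a thick bar at the median and a grey band for the quartiles of all tested genes (-0.32 to 0.30), whose median is the thin line. The disulphide enzymes have the lowest median, -1.0, and the PERK-ATF4 genes the highest, 0.58.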

How the data were processed

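The values are read counts per Ensembl gene, which the authors deposited unscaled. The tools named for them, per the submitters' processing notes, were featureCounts, Subread, edgeR, SAMtools and HISAT2 2.2.1, with the build GRCm38. How reads of either strand or with several hits were counted is not given in the sources used here. Columns were mapped to vectors by name. Symbols and coordinates come from GENCODE M21 (GRCm38), which matched 55141 of 55487 IDs. IDs with no match took 0.0487% and 0.0429% of the counts and have no symbol here.

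Libraries were scaled by TMM (edgeR 4.0.16, R 4.3.3) to 20027260 and 21456692 counts. With 1 library per vector edgeR's quasi-likelihood test has 0 residual degrees of freedom and was not run. Ratios are of scaled CPM, with exact (Clopper-Pearson) 95% counting intervals (scipy 1.17.1), and log2 ratios use a prior count of 2. Counts without molecular identifiers are not independent molecules. A count of 0 allows 3 counts, or 0.150 and 0.140 scaled CPM. TPM uses the union exon length of all isoforms. The genes, lists and tests were chosen with earlier results of these data known. Values are given for every one of the 35 genes and, in the other lists, for genes called 2-fold apart or farthest from equality, with a few more named after their values were seen. Other scalings, filters, prior counts and a call without intervals were tried as alternatives.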

Additional observations from a re-analysis of the deposited data

How the results depend on the processing

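No paired analysis was possible because each vector had 1 library, and for the same reason no replicate could be left out. The count of folding and quality control genes called 1.5-fold lower was 17 with TMM, DESeq2 size factors (DESeq2 1.42.0) and upper quartile scaling, 15 with library totals alone (Uggt1 and Syvn1 were lost) and 19 with the point ratio in place of the interval, which added the sensor Eif2ak3 and Txndc11. The count called 2-fold lower was 5 with TMM, 4 with each of the other scalings, under all of which Sdf2l1 was lost, and 7 with the point ratio, which added Creld2 and Pdia5. No filter, and filters at 5 and, chosen after the values were seen, at 20 scaled CPM, left both counts as they were. No gene of the set was called higher under any of these settings. The median log2 ratio of the set was -0.63 with library totals and its mean was -0.62, beside a median of -0.69. A scaling shifted the log2 ratio of a single gene by up to 0.07 and the median of all tested genes from 0.01 to at most 0.08. Of 175 recomputed values of single genes, 161 stayed within the counting interval, 14 moved beyond it and 0 reversed. Depth limited Derl3 most, at 4 and 9 counts.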

Other observations

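Among the genes outside the set with an ERSE or ERSE-II match in the promoter window and enough reads to be tested, 1 was called 1.5-fold lower and 1 higher. They are named after their values were seen. Nucb1, which encodes the calcium-binding nucleobindin 1 of the Golgi, holds an ERSE-II match. Its counts were 23169 with EVI1-WT and 12683 with EVI1+18, or 1157 and 591 scaled CPM, with a log2 ratio of -0.97. Lgalsl, with 30 and 135 counts, had a log2 ratio of 2.0 and holds the same pattern. The 7 tested genes with an ERSE match lay on both sides of 0 and none was called, with log2 ratios of 0.32 for Pan2, 0.28 for Acacb, 0.21 for Hnrnpa3, -0.03 for Adcy3, -0.35 for Alg12, -0.63 for Gm6566 and -0.87 for Zfp57. Of the 94 tested genes outside the set with a UPRE match, 7 were called lower at 1.5-fold and 3 higher, and the median log2 ratio was -0.07, where 9.79% and 8.29% of all tested genes were so called.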
